A study of Mus musculus with 15 samples.

Results

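Fat cell genes were followed in the lungs and livers of mice fed a control diet or a diet with plant sterols. They were 10 genes chosen by symbol, because each is known from white or brown fat cells, among the 54532 genes listed for each tissue. All 10 were listed in both tissues. The group held the adipokines Adipoq, Lep, Retn and Cfd, the lipid droplet proteins Plin1, Cidec and Cidea, the lipases Lpl and Lipe, and the thermogenic gene Ucp1.

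The animals were wild-type male C57BL/6J mice, an inbred laboratory strain, with an age of 28 weeks on the sample labels (the times in the study's methods add up to an older age). The CS group received the control diet and the PS group the same kind of diet with 2% phytosterols, plant sterols that resemble cholesterol. RNA-seq of polyadenylated RNA from frozen pieces of tissue gave 1 library per organ. The lungs came from 3 mice of each diet and the livers from 4 CS and 5 PS mice. Both organs were sequenced in 6 mice, 3 of each diet.

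The total count per library ranged from 17934930 to 19396057 in the lungs and from 14410117 to 17625179 in the livers. The organs matched their labels by their own markers. Sftpc, a surfactant protein of alveolar type II cells, had 12880 to 27050 CPM (read counts relative to library size after TMM scaling, which sets libraries on a common scale by the bulk of their genes) in the lungs and at most 0.704 CPM in the livers. Alb, the serum albumin gene, had 49940 to 85960 CPM in the livers and 0.308 to 59.5 CPM in the lungs.

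White fat cells store triglyceride in 1 large droplet that is coated by perilipin 1 and enlarged by CIDEC. Lipoprotein lipase brings fatty acids in from circulating lipoproteins and hormone-sensitive lipase, the product of Lipe, takes part in releasing them. The same cells secrete adiponectin, leptin, resistin and adipsin. Brown fat cells burn fatty acids for heat through UCP1 and express Cidea. Lung and liver are not fat depots, although fat lies around the lung hilum and in the mediastinum, and hepatocytes form lipid droplets of their own.

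The bases before the start sites of 5 members are shown because these genes were near 0 in the same 2 PS lungs (values below). RefSeq entries on GRCm38.p6 were matched by symbol for 8 of the 10 members. Each sequence is the 250 bases before the RefSeq start in the direction of transcription, from chr16:23146286-23146535 (plus strand) for Adipoq, chr10:79890603-79890852 (plus) for Cfd, chr8:3655520-3655769 (plus) for Retn, chr6:29059971-29060220 (plus) for Lep and chr7:79732777-79733026 (minus) for Plin1. Capitals mark matches to TTNNGCAA, a form of the site bound by C/EBP factors, on either strand.
Adipoq: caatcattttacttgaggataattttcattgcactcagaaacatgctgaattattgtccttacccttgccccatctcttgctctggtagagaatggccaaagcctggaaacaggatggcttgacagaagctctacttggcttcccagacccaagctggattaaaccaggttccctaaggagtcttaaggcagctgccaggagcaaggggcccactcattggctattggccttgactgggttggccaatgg
Cfd: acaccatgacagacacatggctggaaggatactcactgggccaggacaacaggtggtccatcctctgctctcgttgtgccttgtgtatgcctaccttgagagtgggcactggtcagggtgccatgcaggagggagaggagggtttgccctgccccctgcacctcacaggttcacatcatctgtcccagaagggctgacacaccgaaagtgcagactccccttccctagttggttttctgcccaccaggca
Retn: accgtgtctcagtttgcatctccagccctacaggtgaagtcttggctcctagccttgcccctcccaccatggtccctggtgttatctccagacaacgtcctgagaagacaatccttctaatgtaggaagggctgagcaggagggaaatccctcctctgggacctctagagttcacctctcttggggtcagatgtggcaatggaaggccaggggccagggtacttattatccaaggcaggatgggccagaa
Lep: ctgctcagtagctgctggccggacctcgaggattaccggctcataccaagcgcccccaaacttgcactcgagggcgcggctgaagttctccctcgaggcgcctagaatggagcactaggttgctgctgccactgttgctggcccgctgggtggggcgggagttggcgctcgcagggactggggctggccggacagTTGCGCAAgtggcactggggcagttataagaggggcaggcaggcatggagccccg
Plin1: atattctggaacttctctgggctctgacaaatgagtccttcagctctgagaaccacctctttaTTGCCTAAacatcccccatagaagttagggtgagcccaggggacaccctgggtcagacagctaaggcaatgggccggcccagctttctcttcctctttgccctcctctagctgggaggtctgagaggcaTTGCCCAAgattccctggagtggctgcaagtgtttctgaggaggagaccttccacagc
The C/EBP form was found in 2 of these 5 genes. In Plin1 it stood at bases 187 to 180 and 58 to 51 before the start, and in Lep at bases 55 to 48. Over all 32851 RefSeq entries of this length, 9.56% held it on either strand. The hexamer AGGTCA, recognised by nuclear receptors such as PPARG, and the TATA box TATAAA were in none of the 5 windows, against 14% and 12.4% of all entries on either strand. The motifs do not overlap in these windows, and a match or its absence describes the letters of this window alone.

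In the lung, the diet comparison called 1 of the 9 members left by edgeR's filter for low counts, beside 9.22% of all 16717 genes tested (edgeR quasi-likelihood test, Benjamini-Hochberg adjusted p under 0.05). The called member was Lipe, which was higher in the PS group. The count was read against that background and is near it. Of the 9 tested members, 2 (Lipe and Cidea) had CPM values that did not overlap between the diets, a property of 36.0% of the genes tested. Fitted log2 fold changes (PS over CS) were below 0 for 7 members and above 0 for the lipases Lipe and Lpl, with a median of -1.0 against 0.01 over all genes tested. Ucp1 was under the filter.

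Adiponectin, the product of Adipoq and the most fat-cell-specific of the adipokines, was read out as 270, 377 and 37 counts in the CS lungs (13.7, 19.4 and 2.01 CPM) and as 216, 0 and 0 counts in the PS lungs (12.8, 0 and 0 CPM). A count of 0 allowed up to 3 counts, or 0.167 CPM in PS replicate 2. Both lungs without Adipoq reads were PS lungs, whereas the remaining PS lung lay between CS replicates 2 and 3, so the diets overlapped. The group means were 11.7 ± 8.85 CPM (SD, n = 3) and 4.26 ± 7.38 CPM (n = 3), and the log2 fold change of -1.46 (SE 1.91) did not pass the test (edgeR, adjusted p = 0.649).

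Cfd encodes adipsin, the complement factor D that fat cells secrete. Its counts were 1303, 1494 and 156 in the CS lungs and 1276, 0 and 0 in the PS lungs, which is 65.9, 76.8 and 8.47 CPM against 75.5, 0 and 0 CPM. The same libraries were high, low and at 0 as for Adipoq. The highest lung had at least 459-fold more Cfd in CPM than the lungs at 0, and for Adipoq that bound was 116-fold, both taken against 3 counts per library. Cfd had a larger spread over the 6 lungs (SD 4.61 on the log2 CPM scale, prior count 2) than 99.99% of the genes tested, and Adipoq (SD 3.50) a larger one than 99.97%, where the median gene had 0.34. Within the diets the SD was still 4.05 for Cfd and 3.07 for Adipoq. The diet effect on Cfd was -1.0 on the log2 scale (SE 2.18, edgeR, adjusted p = 0.795).

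Retn, the resistin gene, followed with 95, 134 and 15 counts in the CS lungs and 111, 2 and 9 counts in the PS lungs (4.80, 6.89 and 0.814 CPM against 6.57, 0.112 and 0.497 CPM). It was thus seen at a few counts in both PS lungs that lacked Adipoq. Lep, the gene of the satiety hormone leptin, had the fewest reads of the adipokines, at 19, 96 and 0 counts in the CS lungs and 16, 0 and 0 in the PS lungs. CS replicate 2 alone held most of the Lep reads, and CS replicate 3, where Adipoq was low, had none. Neither gene passed the test, with log2 fold changes of -0.81 (SE 1.29) for Retn and -2.65 (SE 1.69) for Lep (edgeR, adjusted p = 0.711 and 0.330). Fits that left out 1 lung gave -3.75 to -0.24 for Retn and -8.21 to -0.65 for Lep, lowest without PS replicate 1 in both. For Adipoq and Cfd, the fits that kept PS replicate 1 gave -1.92 to -0.88 and -1.46 to -0.42, and the replicate block gave -3.31 and -3.94.

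**Figure D1:**
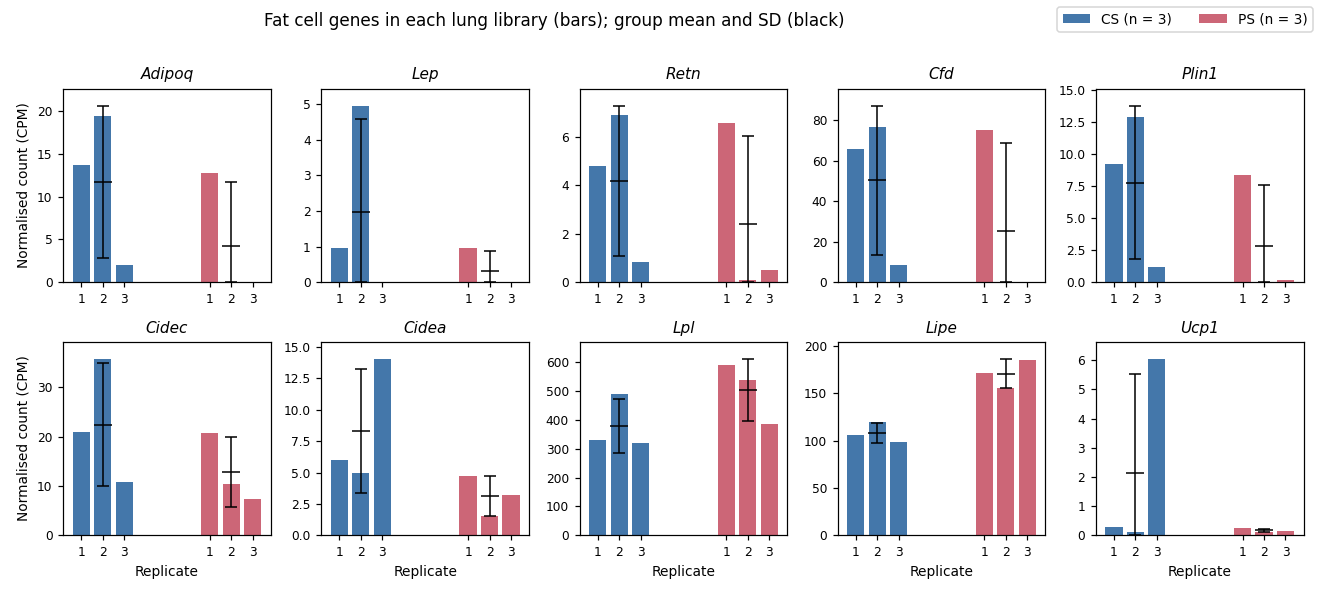
Normalised counts (CPM, linear axis, one scale per gene) of the 10 fat cell genes in each of the 6 lung libraries, with CS lungs in blue and PS lungs in red (bars, replicate number below) and the mean and SD of each group in black (n = 3). Adipoq, Retn, Cfd and Plin1 stand high in CS replicates 1 and 2 and PS replicate 1, Lep stands high in CS replicate 2, Ucp1 and Cidea are highest in CS replicate 3, and Lipe is higher in all 3 PS lungs than in any CS lung.

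Plin1, which coats the lipid droplet of fat cells and controls the access of lipases, had 182, 250 and 22 counts in the CS lungs and 141, 1 and 3 counts in the PS lungs. In CPM these were 9.20, 12.9 and 1.19 against 8.34, 0.056 and 0.166. The ratio of the highest to the lowest lung was 230 (95% exact interval 40.9 to 9130, counting error only, since the lowest lung had 1 read). Its log2 fold change of -1.45 (SE 1.64) did not pass the test (edgeR, adjusted p = 0.595).

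Reads of Plin1 stood in similar proportion to Adipoq reads in the 4 lungs where Adipoq was present. For each Adipoq read there were 0.674, 0.663 and 0.595 Plin1 reads in the CS lungs and 0.653 in PS replicate 1. As a share of the reads of both genes, Plin1 made up 40.3%, 39.9%, 37.3% and 39.5% of them in these 4 lungs, with 95% Wilson intervals that all overlapped (the widest, in CS replicate 3, was 26.1% to 50.1%). Adipoq itself stood at 19.4 CPM in CS replicate 2 and at 2.01 CPM in CS replicate 3. The intervals of Retn, with 0.352 to 0.514 reads per Adipoq read, overlapped as well, but narrowly. Its share was 33.9% (29.0% to 39.2%) in PS replicate 1 and 26.2% (22.6% to 30.2%) in CS replicate 2. Overlap of intervals is not a test that shares are equal. Cfd ranged from 3.96 to 5.91 reads per Adipoq read, and its share was higher in PS replicate 1 (85.5%, 83.7% to 87.2%) than in CS replicate 2 (79.9%, 78.0% to 81.6%), with intervals that did not overlap. Lep varied more, with 0.070, 0.255 and 0 reads per Adipoq read in the CS lungs and 0.074 in PS replicate 1. These shares share their libraries and their Adipoq reads, and PCR duplicates could not be removed from the counts, so that the intervals cover counting error only.

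**Figure D2:**
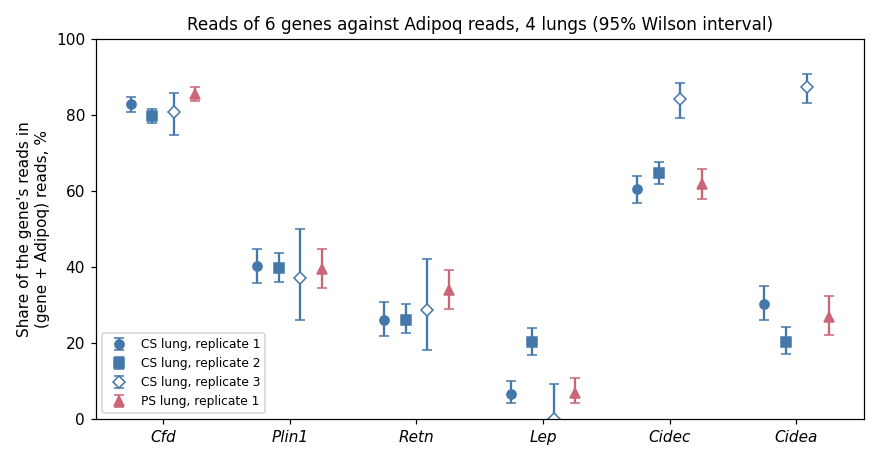
Share (%, linear axis from 0 to 100) of each of 6 genes' reads in the sum of its reads and Adipoq reads, in the 4 lungs that had Adipoq reads (CS in blue, PS in red), with 95% Wilson intervals. For Plin1 the 4 lungs lie between 37.3% and 40.3%, whereas Cidec and Cidea reach 84.3% and 87.5% in CS replicate 3, the lung with the fewest Adipoq reads of the 4.

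None of the 5 genes was called with all lungs, and the calls turned on a single library. Without PS replicate 1, the PS lung with reads of all 5 genes, 5 members passed in the lung instead of 1, namely Lipe, Adipoq, Cfd, Plin1 and Retn (edgeR, adjusted p from 0.025 to 0.0482 for the last 4). In that fit 17.1% of all 17227 genes tested passed, against 9.22% with all lungs. Adipoq, Cfd, Plin1 and Retn varied together over the 6 lungs (Pearson r from 0.935 to 0.997), so their calls are not separate results. The PS lungs left in that fit were those where these genes were near 0. The mean of the CS lungs was then at least 69.7-fold above the floor of 3 counts per library for Adipoq and at least 301-fold above it for Cfd, as both remaining PS lungs were at 0. The lowest CS lung was at least 12-fold and 50.6-fold above it. Without any one of CS replicates 1, 2 and 3 or PS replicate 2, no member was called, and of all genes 0.134%, 0.151%, 0.0% and 0.0528% were. Without PS replicate 3, Lipe was the 1 member called, beside 13.2% of all genes. In bulk tissue, fewer fat cells and less RNA per fat cell cannot be told apart, and with pieces of an organ neither can a difference between the mice and a difference between the pieces taken.

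Cidec encodes the droplet protein FSP27, which fuses lipid droplets in fat cells and is also made by fatty livers. It did not disappear with Adipoq. The CS lungs held 413, 694 and 199 Cidec counts and the PS lungs 352, 186 and 133 (20.9, 35.7 and 10.8 CPM against 20.8, 10.4 and 7.34 CPM). The lungs with no Adipoq read therefore still held 133 and 186 Cidec reads, and the highest and lowest lungs differed 4.86-fold (95% exact interval 4.03 to 5.90). The diets overlapped, with a log2 fold change of -0.81 (SE 0.48) that did not pass the test (edgeR, adjusted p = 0.294).

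Cidea, a related droplet protein known from brown fat, had 118, 97 and 258 counts in the CS lungs and 80, 27 and 58 in the PS lungs. Every PS lung was below every CS lung (4.73, 1.51 and 3.20 CPM against 5.96, 4.99 and 14 CPM). The log2 fold change was -1.40 (SE 0.50, unadjusted p = 0.0205, edgeR), and it did not pass after adjustment (adjusted p = 0.0998). DESeq2's Wald test, which called 18.5% of all genes, gave an adjusted p of 0.0287 for the same difference. Without CS replicate 3, where Cidea was highest, the log2 fold change was -0.77.

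Ucp1, the uncoupling protein that defines brown and beige fat cells, was concentrated in CS replicate 3. Counts were 6, 2 and 111 in the CS lungs and 4, 2 and 3 in the PS lungs. The highest lung thus had 58.6 times the CPM of the lowest (95% exact interval 15.8 to 490). The 2-sided exact permutation test of the diets gave p = 0.4, where 3 against 3 lungs cannot give less than 0.1. CS replicate 3 was also the lung with few Adipoq reads, so Ucp1 and Adipoq did not peak in the same libraries.

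Other genes known from brown fat were uneven in that lung. Cox8b, a cytochrome c oxidase subunit of brown fat and striated muscle, was highest in CS replicate 3 at 14.1 CPM (4.50 and 5.76 CPM in the other CS lungs, and 10.3, 4.24 and 3.04 CPM in the PS lungs). Elovl3, an elongase induced in brown fat, was at 0.163 CPM there and at 1.57 CPM in CS replicate 1. It was also abundant in the livers, with means of 643.5 CPM (CS) and 222.5 CPM (PS). CS replicate 1 was the lung with the most Alb (59.5 CPM), and the source of its Elovl3 reads was not tested. Skeletal muscle genes stood out in CS replicate 3. Acta1, the skeletal muscle actin, had 221 CPM in CS replicate 3 and at most 0.71 CPM in any other lung, and Ckm, muscle creatine kinase, had 60.4 CPM against at most 3.14 CPM. Myh4, a fast muscle myosin, had 4.56 CPM in that lung and no reads in the other 5. Of the 8 heart and skeletal muscle genes, 7 were tested and none was called with all lungs. Their summed level ranged from 168 to 461 CPM in the CS lungs and from 41.1 to 485 CPM in the PS lungs. The fit without PS replicate 1, which called Adipoq, Cfd, Plin1 and Retn, also called Myl7, Tnnt2 and Actc1 of this list (17.1% of all genes passed in it). The part of the muscle genes in the values of the members was not tested.

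Lpl, the lipase that endothelium displays to the blood, was the member with the most reads in every lung. The counts were 6552, 9488 and 5879 in the CS lungs and 9943, 9619 and 6964 in the PS lungs (331, 488 and 319 CPM against 588, 537 and 384 CPM). PS replicate 3 lay within the CS range and the other 2 PS lungs above it. The log2 fold change of 0.41 (SE 0.23) did not pass the test (edgeR, adjusted p = 0.264). Both lungs without Adipoq reads held Lpl in quantity (537 and 384 CPM), and the highest and lowest lungs differed 1.84-fold.

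Lipe, which encodes hormone-sensitive lipase and cleaves diglycerides and cholesteryl esters, was higher in the PS lungs. Counts were 2101, 2322 and 1818 in the CS lungs and 2895, 2788 and 3366 in the PS lungs. In CPM the CS lungs had 106, 119 and 98.7 and the PS lungs 171, 156 and 186, with no overlap. The means were 108 ± 10.5 CPM (SD, n = 3) and 171 ± 15.1 CPM (n = 3), with a log2 fold change of 0.66 (SE 0.14, edgeR, adjusted p = 0.0338), higher in 3 of 3 PS lungs. Its within-diet SD of 0.13 on the log2 CPM scale was smaller than that of most genes tested (12.6% had a smaller one). The call did not stand once each library's trend with GC content had been removed (log2 fold change 0.53, adjusted p = 0.0503, where 7.8% of all genes passed), nor without any single one of the CS lungs or PS replicate 2 (adjusted p from 0.0843 to 0.12), while the log2 fold change kept between 0.60 and 0.73 in all 6 fits that left out a library.

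The exons of Lipe overlap 918 bases of 4732471J01Rik on the other strand (GENCODE M21), and the use of strand in counting is not stated in the sources used here. That gene had 8 to 22 counts of its own in the lungs, few beside Lipe. These counts do not show how reads in the shared bases were assigned, and their part in the Lipe values was not tested. No other member shared exon bases with another gene, and no near-identical copy of a member (95% identity over at least 200 bases) was found among the transcripts.

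**Figure D3:**
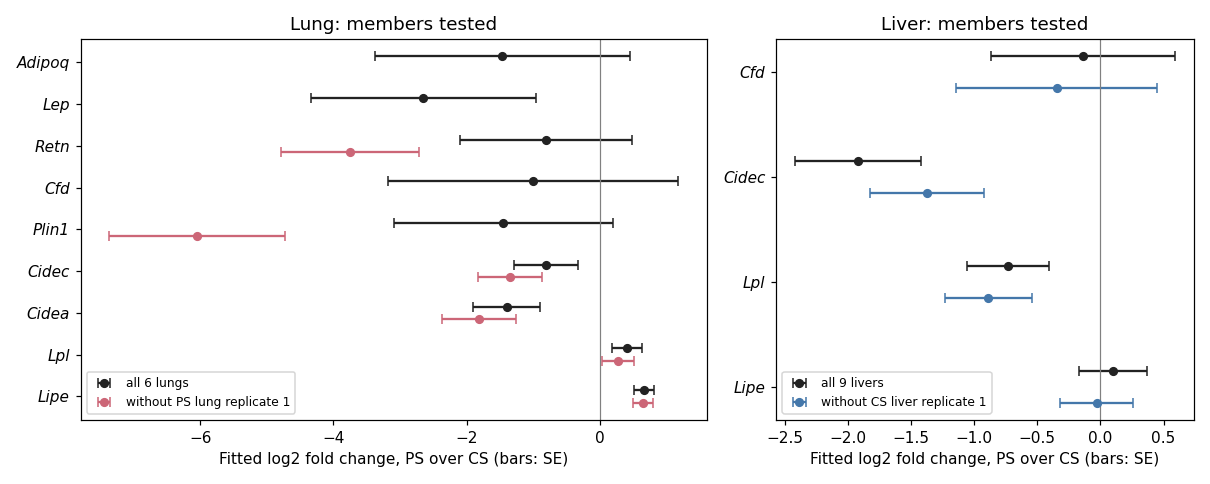
Fitted log2 fold changes (PS over CS, edgeR) with standard errors for the members tested in the lung (left, all 6 lungs in black, without PS replicate 1 in red) and in the liver (right, all 9 livers in black, without CS replicate 1 in blue). Of the lung members only Lipe (0.66, SE 0.14) passed with all lungs, and red points are left out for Adipoq, Lep and Cfd, where both remaining PS lungs were at 0.

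Per length, the members covered a wide range in the lung. In FPKM (the deposited values, which are scaled by gene length and library), the CS lungs had means of 54.9 ± 40.0 (SD, n = 3) for Cfd, 36.3 ± 9.05 for Lpl, 18.4 ± 1.84 for Lipe, 12.1 ± 6.78 for Cidec, 8.49 ± 6.44 for Adipoq and 7.15 ± 4.21 for Cidea. Below these came 2.65 ± 1.96 FPKM for Retn, 1.67 ± 1.29 FPKM for Plin1, 1.31 ± 2.05 FPKM for Ucp1 and 0.588 ± 0.783 FPKM for Lep. Neighbours in this order overlapped between libraries, except for Lpl and Lipe. In the PS lungs the order of the leading 3 changed, with Lpl at 48.4 ± 10.8 FPKM, Lipe at 29.2 ± 2.23 FPKM and Cfd at 27.7 ± 47.9 FPKM.

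The other white fat cell genes were described by a list of 22, all of which were tested in the lung. Of these, 1 fell and none rose, beside 9.22% of all genes called. Their median log2 fold change was -0.21 against 0.01 over all genes tested. The gene that fell was Gpd1, glycerol-3-phosphate dehydrogenase, at 28.1, 27.4 and 34.4 CPM in the CS lungs and 21.8, 11.5 and 14.95 CPM in the PS lungs (log2 fold change -0.90, SE 0.24, edgeR, adjusted p = 0.0485). The call was lost in 5 of the 6 fits that left out a library, all but that without PS replicate 1 (adjusted p from 0.0786 to 0.165). Several of the list were low in the same libraries as Adipoq. They were chosen after their values were seen. Fabp4, the fatty acid binding protein of fat cells and endothelium, had 115, 137 and 51.5 CPM in the CS lungs and 129, 24.1 and 7.89 CPM in the PS lungs. Car3, a carbonic anhydrase abundant in fat, had 55.6, 75.6 and 18.8 CPM against 63.4, 0.447 and 0.055 CPM. Pck1, which supplies glycerol for triglyceride in fat, had 38.3, 36.9 and 2.23 CPM against 20.3, 1.40 and 0.110 CPM. None of these 3 passed the test (edgeR, adjusted p from 0.528 to 0.709). Without PS replicate 1, Car3 and Fabp4 were called and Pck1 was not, where 17.1% of all genes passed. Fabp4 and Car3 did not keep their proportion to Adipoq reads. There were 8.46, 7.06 and 25.6 Fabp4 reads per Adipoq read in the CS lungs and 10.1 in PS replicate 1, and 4.08, 3.90 and 9.38 Car3 reads against 4.96.

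Other genes of these lists had other patterns over the lungs, and they too were chosen after their values were seen. Pparg, the nuclear receptor that drives fat cell formation and is also made by alveolar macrophages, was at 9.30, 8.94 and 10.9 CPM in the CS lungs and 10.1, 14.6 and 7.06 CPM in the PS lungs. Cebpa, its partner and a gene of alveolar epithelium, ranged from 113 to 189 CPM over all lungs. Adrb3, the beta-adrenergic receptor of fat cells, was at its highest, 23.7 CPM, in PS replicate 3, where Adipoq was at 0. Ppargc1a, a coactivator of Pparg from the brown fat list, had 6.82, 6.37 and 6.46 CPM in the CS lungs and 5.68, 3.01 and 3.48 CPM in the PS lungs, lowest in the lungs without Adipoq reads.

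**Figure D4:**
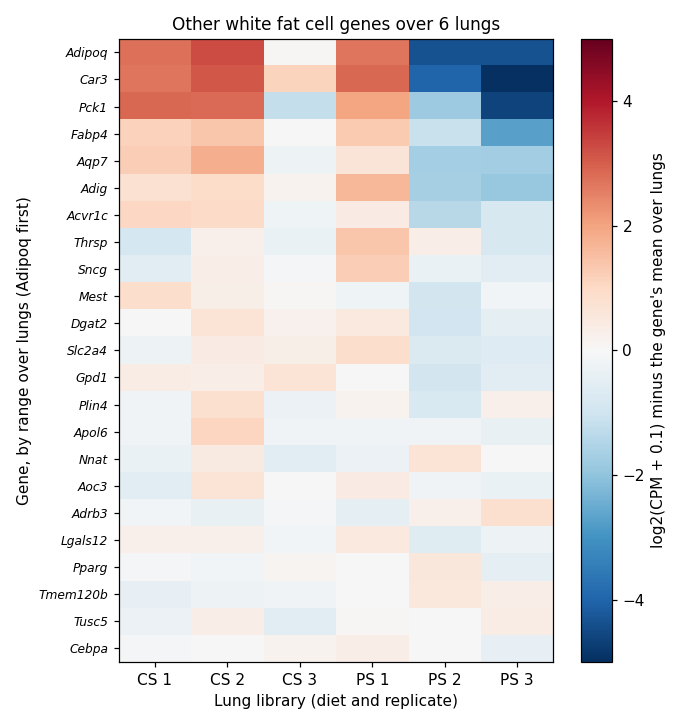
Level of 22 other white fat cell genes and Adipoq (top row) in each lung library, as log2(CPM + 0.1) minus the gene's mean over the 6 lungs (colour, red above and blue below the mean). Genes are ordered by their range over the lungs, and Car3, Pck1 and Fabp4 are lowest in PS replicates 2 and 3 like Adipoq, while Cebpa, Tusc5 and Tmem120b at the bottom vary the least.

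Among 15 other brown fat cell genes, 11 were tested in the lung and none was called (median log2 fold change -0.17, and 2 had an unadjusted p under 0.05, as 30.1% of all genes tested did). Lipolysis and lipid droplet genes, a list of 10 with 9 tested, held 1 call, beside 9.22% of all genes called. This was Dgat1, a triglyceride synthase, which rose. It was at 24.1, 19.9 and 20.8 CPM in the CS lungs and 27.8, 36.5 and 43.1 CPM in the PS lungs (log2 fold change 0.73, SE 0.19, edgeR, adjusted p = 0.0473). It too was called in 1 of the 6 fits that left out a library, that without PS replicate 1, and it was lost with GC content trends removed (adjusted p = 0.0554). The median of that list was -0.03. Pnpla2, the triglyceride lipase that acts before Lipe, had 81.2 to 175 CPM in the CS lungs and 133 to 145 CPM in the PS lungs, and its adjusted p was 0.80.

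Partners of LPL were a list of 10, with 7 tested, 1 called (beside 9.22% of all genes) and a median log2 fold change of 0.09. Lmf1, which is needed for the folding of LPL, rose from 12.9, 13.5 and 13.3 CPM in the CS lungs to 19.7, 24.8 and 19.4 CPM in the PS lungs (log2 fold change 0.69, SE 0.17, edgeR, adjusted p = 0.0426). The call was lost without any one of CS replicates 1, 2 and 3 or PS replicate 2 (adjusted p from 0.126 to 0.152) and with GC content trends removed (adjusted p = 0.0578). Gpihbp1, which carries LPL to the capillary surface, had 206 to 234 CPM in the CS lungs and 177 to 271 CPM in the PS lungs. Cd36, the fatty acid transporter, was lower in each PS lung (1191, 761 and 708 CPM) than in any CS lung (1311, 1607 and 1497 CPM), but did not pass (log2 fold change -0.73, edgeR, adjusted p = 0.0758). Adipokine receptors and substrates, 6 genes and all tested, held no call. Adipor1, an adiponectin receptor, ranged from 210 to 260 CPM over the lungs, and C3, the complement protein whose activation adipsin amplifies, from 390 to 805 CPM.

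Marker lists of other cell types varied over the same lungs, and their part in the member values was not tested. The 5 endothelial genes had 1 call, Kdr, a receptor for VEGF, which fell (log2 fold change -0.95, SE 0.23, edgeR, adjusted p = 0.0412, beside 9.22% of all genes called). That call was lost without any one of CS replicates 1, 2 and 3 or PS replicate 2 (adjusted p from 0.0990 to 0.128), and with GC content trends removed (adjusted p = 0.0508). The endothelial summed level was 2113 to 2401 CPM in the CS lungs and 2006 to 2446 CPM in the PS lungs. None of the 5 mesothelial genes was called (sums of 197 to 352 CPM in CS and 156 to 470 CPM in PS), nor was any of the 6 fibroblast genes (966 to 1079 CPM and 945 to 1301 CPM). In the fibroblast list, Col1a2 was higher in each PS lung (238.5 to 380.1 CPM) than in any CS lung (213.0 to 232.7 CPM, edgeR, adjusted p = 0.126). CPM values of the diets did not overlap for 36.0% of all genes tested. Without PS replicate 3, Col1a2 was called, as were 13.2% of all genes. The 7 lung epithelial genes and the 5 alveolar macrophage genes held no call, with sums of 62830 to 86660 CPM in the CS lungs and 70380 to 100700 CPM in the PS lungs for the former and of 341 to 362 CPM and 288 to 533 CPM for the latter. Of these, Sftpb (2241 to 2304 CPM in CS and 2323 to 2359 CPM in PS), Sftpc (12880 to 13890 CPM in CS and 16310 to 27050 CPM in PS, adjusted p = 0.0764) and Siglecf, a receptor of alveolar macrophages and eosinophils (4.78 to 5.41 CPM and 6.46 to 11.5 CPM, adjusted p = 0.142), did not overlap between the diets, and Sftpc, Mrc1 and Ear2 were called as higher without PS replicate 3 (edgeR, adjusted p from 0.0208 to 0.0364). Of the 7 hepatocyte genes 5 were tested and none was called, with sums of 10.7 to 147 CPM in the CS lungs, the highest in CS replicate 1, and 16.9 to 32.6 CPM in the PS lungs. Myh6, a heart muscle myosin, was at 49.6, 56.1 and 28.6 CPM in the CS lungs and 142, 0.056 and 8.66 CPM in the PS lungs. Of 5 thymus genes 2 were tested and none was called, and Ptcra was at 0 in 4 lungs.

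Apart from the members (Adipoq had an r of 0.997 with Cfd and Plin1 one of 0.98), the tested genes whose pattern over the 6 lungs was most like that of Cfd (Pearson r of log2 CPM, as a description over libraries that fall into high and near-0 samples) were Gatc, Cpt2, Ifi47, Tmem9b, Fuca2, Car3, Man2a1 and Gpd2, with r from 0.986 to 0.994. Of the 14233 genes compared, 58 had an r above 0.95. Cpt2, a mitochondrial enzyme of fatty acid import, went from 18.8 to 25.3 CPM over the lungs, and only Car3 among the 8 spanned a range near that of Cfd, from 0.055 to 75.6 CPM.

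In the liver, fat cell genes were nearly absent, apart from Cidec, Lpl and Lipe and low levels of Cfd. These 4 members passed the filter on low counts and none was called, where 0.00758% of the 13195 genes tested (1 gene) passed. An unadjusted p under 0.05 was found for 2 of the 4 and for 7.55% of all genes tested. Fitted log2 fold changes were below 0 for 3 of them, with a median of -0.44 against -0.03 over all genes tested. DESeq2's Wald test called 1 of the 4, Cidec, and 1.24% of all genes.

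Cidec was lower in every PS liver than in any CS liver. The counts were 1310, 350, 513 and 349 in the CS livers and 44, 370, 171, 101 and 131 in the PS livers. In CPM these were 72.3, 23.6, 29.8 and 22.4 against 3.40, 21.0, 9.97, 5.68 and 8.69. It was the only 1 of the 4 tested members whose diets did not overlap, as held for 3.63% of the genes tested. The means were 37.0 ± 23.8 CPM (SD, n = 4) and 9.75 ± 6.81 CPM (n = 5). The log2 fold change was -1.92 (SE 0.50, edgeR, unadjusted p = 0.0026), lower in 5 of 5 PS livers, and it failed the adjustment over all genes (adjusted p = 0.290). DESeq2's Wald test gave -1.93 with an adjusted p of 0.0160. CS replicate 1 was the highest liver by far, and its removal left a log2 fold change of -1.38 (SE 0.45).

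Of the 8 tested genes most like Cidec over the 9 livers (r from 0.939 to 0.986, a description), Crat, the carnitine acetyltransferase, had a median of 170 CPM and Atp9a, a membrane lipid flippase, a median of 80.1 CPM. The others were St3gal3, Frat1, Rtn4ip1, Lamb3, Ung and Gnai1. No gene of the 8 passed the diet comparison, with log2 fold changes from -1.22 to -0.26 (edgeR, adjusted p from 0.413 to 0.747).

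Lpl had 183, 160, 238 and 396 counts in the CS livers and 173, 136, 97, 128 and 170 in the PS livers (10.1, 10.8, 13.8 and 25.4 CPM against 13.4, 7.73, 5.66, 7.19 and 11.3 CPM). The diets overlapped, with a log2 fold change of -0.73 (SE 0.33, edgeR, unadjusted p = 0.0461, adjusted p = 0.652). Lipe showed 12.4, 26.6, 18.1 and 10.4 CPM in the CS livers and 21.3, 15.6, 16.7, 14.95 and 21.5 CPM in the PS livers, with means of 16.9 ± 7.23 CPM (n = 4) and 18.0 ± 3.15 CPM (n = 5). Its log2 fold change of 0.10 (SE 0.27) was within the spread between livers (edgeR, adjusted p = 0.980). Cfd was at 14, 44, 29 and 2 counts in the CS livers and at 24, 20, 38, 5 and 12 counts in the PS livers, again overlapping (log2 fold change -0.14, SE 0.73, edgeR, adjusted p = 0.993).

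The remaining 6 members were under the filter in the liver. Ucp1 had no read in any of the 9 livers, and Lep had 1 read in 1 liver. Adipoq had 1, 0, 2 and 1 counts in the CS livers and 0, 0, 4, 0 and 1 in the PS livers. Plin1 and Retn had at most 3 and 4 counts in any liver. Cidea reached 15 and 21 counts in PS replicates 1 and 2 (1.16 and 1.19 CPM) and at most 7 elsewhere. Exact 2-sided permutation tests of CPM between the diets gave p = 0.968 for Adipoq, 0.325 for Cidea, 0.444 for Lep, 1 for Plin1 and 0.730 for Retn, as raw values from 5 tests. The smallest p that the reads allowed was 0.00794 for Adipoq, Cidea and Retn, 0.167 for Plin1 and 0.444 for Lep, so that the last pair could not have passed.

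**Figure D5:**
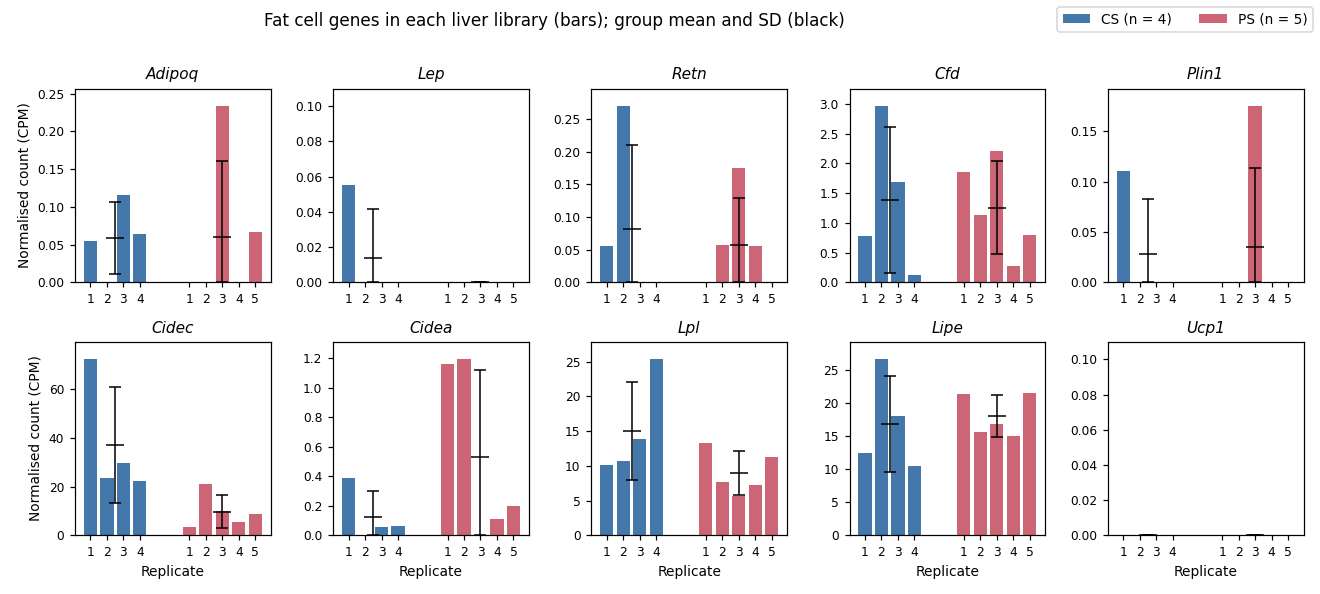
Normalised counts (CPM, linear axis, one scale per gene) of the 10 fat cell genes in each of the 9 liver libraries, with CS livers in blue (n = 4) and PS livers in red (n = 5) and the group mean and SD in black. Cidec lies between 22.4 and 72.3 CPM in the CS livers and between 3.40 and 21.0 CPM in the PS livers, while Adipoq, Lep, Retn and Plin1 stay under 0.3 CPM and Ucp1 has no reads.

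The liver made other genes of the fat cell lists in quantity, and none of those tested was called. Of the 22 white fat cell genes 12 were tested (median log2 fold change 0.10) and of the 15 brown fat cell genes 6 (median -0.42). Pck1, which in liver serves glucose production, had 1566 to 4750 CPM over the 9 livers. Values chosen after they were seen include Thrsp, a lipogenic nuclear protein, at 20.4, 64.8, 33.4 and 51.4 CPM in the CS livers and 254, 95.1, 147, 87.8 and 169 CPM in the PS livers, without overlap (log2 fold change 1.82, SE 0.40, edgeR, adjusted p = 0.175). Plin2, the main droplet coat of hepatocytes, had 1621, 251, 1040 and 1314 CPM in the CS livers and 277, 885, 336, 607 and 445 CPM in the PS livers (log2 fold change -1.05, SE 0.47, edgeR, adjusted p = 0.658). CS replicate 2 was the lowest liver for Plin2 while it was close to CS replicate 4 for Cidec. Lipolysis and lipid droplet genes (10 of 10 tested, median -0.30) and partners of LPL (10 of 10 tested, median -0.02) held no call. Without CS replicate 2, 3 list genes passed, Car3, Thrsp and Elovl3, and no member, while the share of all genes that passed went from 0.00758% to 0.486%. That library differed more from the other CS livers (chi-square per degree of freedom from 263 to 331) than they did from each other (42.2 to 96.6).

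Between the organs, 8 members were higher per length in every CS lung than in any CS liver. That held for 66.9% of the 17696 genes tested for the difference between organs, which did not include Ucp1. The FPKM means of the CS group were 36.3 in lung and 1.46 in liver for Lpl, 18.4 and 2.91 for Lipe, and 8.49 and 0.044 for Adipoq. Lep overlapped because CS replicate 3 lung had none. Cidec overlapped too, with 12.1 ± 6.78 FPKM in the CS lungs (n = 3) and 20.3 ± 13.1 FPKM in the CS livers (n = 4), and with 6.99 ± 3.90 FPKM (n = 3) and 5.33 ± 3.74 FPKM (n = 5) in the PS group. In the PS group, 4 members (Lpl, Lipe, Cidea and Ucp1) were higher in every lung than in any liver, against 66.5% of those genes. The organs were normalized in separate tables, so these levels are set side by side without a test.

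The 6 mice with both organs can be followed by their counts, without a test. The mouse whose lung (PS replicate 2) had no Cfd and no Adipoq reads had 38 Cfd reads and 4 Adipoq reads in its liver (PS replicate 3), the most Adipoq reads of any liver. The mouse with 1494 Cfd reads in its lung (CS replicate 2) had 44 in its liver, the most of any liver, and it also had the most Retn reads of the 6 in both organs (134 and 4). The mouse of PS lung replicate 3, again with no Cfd read in the lung, had 12 in the liver.

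The diet effect of a member was compared between the organs in 1 model over all 15 libraries. Of the 9 members tested none was called, where 0.0226% of 17696 genes were (edgeR, 4 genes). The largest differences (lung effect minus liver effect) at an unadjusted p under 0.05, which 10.9% of all genes had, were those of Lpl, 1.11 on the log2 scale (SE 0.47, edgeR, adjusted p = 0.415), and Cidea, -3.37 (SE 1.36, adjusted p = 0.411). Cidea, with 0 to 21 counts per liver, was under the filter in the liver and entered this model through its lung counts, as did Adipoq, Lep, Retn and Plin1. Lipe, called in the lung, differed by 0.51 (SE 0.34, adjusted p = 0.588), so that its lung effect was not shown to differ from that in the liver. For Cidec the difference was 1.08 (SE 0.79, adjusted p = 0.620).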

How the data were processed

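Lung (3 CS, 3 PS) and liver (4 CS, 5 PS) libraries were grouped by their labels. The authors aligned reads with HISAT2 2.0.5 and counted them per gene with featureCounts 1.5.0-p3 on mm10/GRCm38 (versions from the submitters' processing notes, the gene model and strand setting not given in the sources used here), and they deposited these counts without normalization. The deposited FPKM values equal the counts divided by gene length and 1 factor per library, which sets libraries on the authors' own scale. The submitters' notes also name DESeq2 1.20.0. Every sample column was mapped.

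The members and lists were chosen with earlier results of these data known. Diets were compared within each tissue by edgeR 4.0.16 (TMM, filterByExpr, robust quasi-likelihood test, R 4.3.3), and the tissue by diet interaction over 15 libraries. P-values were adjusted by Benjamini-Hochberg over all genes tested. Members under the filter were compared by an exact permutation test of CPM. The fits were also run on simulated counts with the same dispersion for every gene, which does not cover genes near 0 in some libraries only. Alternatives were DESeq2 1.42.0 (size factors or Wald test), no filter, limma-trend (limma 3.58.1) with log2(FPKM + 1) or a pseudocount of 0.1, the replicate block, mouse as a block, removal of GC content trends (loess, span 0.3), CPM by column total, CPM per kilobase and leaving out each library. Named were the members, list genes (called first, then the highest expressed, up to 30 per comparison), and in each tissue the 8 genes of mean log2 CPM at least 1 most correlated with Cfd (lung) or Cidec (liver), members and clone names left out. The 111 other list genes were matched, 2 of them by synonym. Libraries of one group differed by more than counting noise (chi-square per degree of freedom from 22.1 to 331), and the labels give 1 mouse per library. A count of 0 allowed 3 counts, and intervals cover counting error only.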

Additional observations from a re-analysis of the deposited data

Results flagged for a closer look

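In the liver, where groups of 4 and 5 allow the comparison, the highest library of a group stood apart from its others by Dixon's 95% criterion for 6 of the 17 groups of a member looked at. Chance flags about 1 in 20 groups of continuous values, a rate that does not hold where a group holds 0 to 7 reads per library, as in 5 of the 6. CS replicate 1 was set apart by Cidec, at 72.3 CPM against 22.4 to 29.8 CPM in the other CS livers. The same liver was the highest of its group for Cidea at 0.386 CPM, for Plin1 at 0.11 CPM and for Lep at 0.0552 CPM, which rest on 7, 2 and 1 reads. PS replicate 3 stood apart for Adipoq at 0.233 CPM and for Plin1 at 0.175 CPM, on 4 and 3 reads, against at most 1 read of either gene in the other PS livers. Groups of 3 lungs were not examined in this way.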

How the results depend on the processing

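Of the 10 members, 9 were tested in the lung and 4 in the liver, and in the lung 1 was called. That count was 2 with DESeq2's Wald test (Lipe and Cidea), 0 once GC content trends were removed (7.8% of all genes were called there), and 0 to 5 when a library was left out. The liver count of 0 was 1 with DESeq2's Wald test (Cidec) and 0 without any one library, and the count of 0 for the difference between tissues stayed 0 in every fit. List genes called went from 4 to 10 in the lung with DESeq2's Wald test and from 0 to 2 in the liver, and from 0 to 17 and 0 to 3 when a library was left out (17 without PS lung replicate 1, 3 without CS liver replicate 2). Over all lung genes, edgeR called 802 higher and 740 lower, DESeq2's Wald test 1611 and 1479, and edgeR 23, 26, 0 and 9 in all without CS replicates 1, 2 and 3 and PS replicate 2 (3890 had an unadjusted p under 0.05 where none was called), and 2949 and 2256 without PS replicates 1 and 3. Liver Cfd turned to 0.16 on the log2 scale with limma-trend on log2(FPKM + 0.1). Fits without a library gave -0.52 to 0.52 for liver Cfd and -0.072 to 0.40 for liver Lipe. For the difference between tissues such fits gave -10.03 to 0.22 for Adipoq, -5.31 to 1.47 for Lep, -3.49 to 0.37 for Retn and -6.32 to 1.58 for Plin1, and Lep was at 0.14 with mouse as a block. These fitted values of genes with groups at 0 depend on the prior count. The cause of these changes was not tested. No liver member under the filter passed with column totals or without a library. Ucp1 in the lung and Lep and Plin1 in the liver could not pass the exact test with all libraries. CPM per kilobase left 9 of 10 members higher in the CS lungs than in the CS livers by the mean, as FPKM did.

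By the labels, libraries of the same replicate number came from different mice in the CS and PS groups, and no day or batch is named. Deviations of same-numbered libraries correlated at -0.36 to -0.03 in the liver and -0.01 to 0.10 in the lung. With so few libraries, such values cannot show whether a day was shared. With the replicate block, 1 member was called in the lung (Lipe, 0.66, adjusted p = 0.0445) and 0 in the liver, where Cfd was at 0.25.

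At this depth, Adipoq, Lep, Retn and Plin1 had at most 4 reads in any liver, so differences under about 3 counts could not be seen, and 3 against 3 lungs leaves the spread of genes present in some lungs only poorly known.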

Other observations

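Some genes of the lipid lists had lung values that did not overlap between the diets, as 36.0% of all genes did, and did not pass the adjustment. They were chosen after their values were seen. Plin2, a droplet coat protein found in most cells, had 222, 147 and 146 CPM in the CS lungs and 130, 114 and 138 CPM in the PS lungs (log2 fold change -0.43, SE 0.19, edgeR, adjusted p = 0.169). Abhd5, the activator of the lipase made from Pnpla2, had 35.9, 43.3 and 38.2 CPM against 27.3, 29.8 and 25 CPM (log2 fold change -0.52, SE 0.15, edgeR, adjusted p = 0.0597). Vldlr, a lipoprotein receptor, had 54.3, 74.5 and 62.1 CPM against 43.7, 40.9 and 46.5 CPM (log2 fold change -0.54, SE 0.16, edgeR, adjusted p = 0.0608). Angptl4, an inhibitor of LPL, lay the other way, at 116, 176 and 136 CPM in the CS lungs and 182, 198 and 214 CPM in the PS lungs (log2 fold change 0.47, SE 0.18, edgeR, adjusted p = 0.116). In the liver, Ppargc1a, a coactivator of oxidative genes, was higher in each PS liver (10.3 to 15.5 CPM) than in any CS liver (3.86 to 9.67 CPM), with an adjusted p of 0.463.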
